A study of Mus musculus with 4 samples.

Results

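The 10 genes described here encode A20 (Tnfaip3), the proteins that bind it or work beside it, and the ubiquitin ligases cIAP1 and cIAP2. They were picked by name, with earlier results of these data known, and no measured value enters the rule: Tnfaip3, Tnip1, Tnip2, Tnip3, Tax1bp1, Birc2, Birc3, N4bp1, Cyld and Otulin. Each symbol matched 1 of the 54532 genes in the deposited table, and all 10 were among the 13989 genes that passed the expression filter, with at least 485 counts in every library. RNA was sequenced from bone marrow-derived macrophages, that is, macrophages grown for 6 days from marrow of femur and tibia in medium with 20% L929-conditioned medium and 10% serum. The mice were C57BL/6 animals of 6 to 8 weeks. By the series' design text, WT stands for FBXW7f/f mice, with loxP sites in both copies of Fbxw7, and KO for LysM-cre FBXW7f/f mice, in which a Cre gene placed in the lysozyme locus Lyz2 acts in myeloid cells. All mice thus carried the floxed alleles. Cells of each title were sequenced without treatment and after 3 h with lipopolysaccharide (LPS), a bacterial product sensed by the receptor TLR4. The 4 groups have 1 library each, titled WT, KO, WT_LPS3 and KO_LPS3, and values below follow that order unless stated. The number of mice behind a library is not stated in the labels.

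Signals from TLR4 and from TNF receptors are carried by ubiquitin chains that ligases build on receptor complexes and that deubiquitinases remove. cIAP1 and cIAP2 build such chains together with TRAF proteins, and the linear ubiquitin assembly complex LUBAC adds linear chains on which kinases gather. A20, its binding partners ABIN-1, ABIN-2 and ABIN-3 (Tnip1, Tnip2 and Tnip3), TAX1BP1, CYLD and OTULIN bind, edit or cut these chains and restrain NF-κB. Tnfaip3 and Birc3 are textbook NF-κB target genes in macrophages.

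Total counts ran from 17610372 to 23835940 per library. Levels are CPM, counts scaled to a fixed library total, with edgeR's TMM factors, and the smallest detectable level, 3 counts, was 0.108 to 0.184 CPM. The labels disagree among themselves: the genotype tags give the floxed genotype to both untreated libraries and the cre genotype to both LPS libraries, whatever their titles. Fbxw7 had 17.9, 17.2, 9.90 and 11.7 CPM, so its gene-level count did not separate the titles, and it cannot show the loss of an exon. Both LPS libraries were below both untreated ones for Fbxw7, as for 39.3% of all genes tested. That grouping is the one of the genotype tags and of treatment alike, and its cause was not tested. Lyz1, the neighbour of the cre-bearing locus, had 2.86, 32.9, 33.1 and 2.63 CPM and so was alike in KO and WT_LPS3 and in WT and KO_LPS3, against the titles. Lyz2, the locus itself, had 15253, 8711, 9917 and 18238 CPM and grouped the libraries in the same way. All comparisons between titles below are therefore between titled libraries, and results that do not use the titles are given beside them. If the genotype tags are right, treatment and genotype coincide, and no comparison of LPS with untreated libraries here can tell them apart. All 9 macrophage markers, such as Adgre1 and Csf1r, were above 10 CPM in every library. Summed markers of B cells, mostly Cd79b, were 9.96 to 31.6 CPM. The summed marker list of each other cell type searched (mast, erythroid, dendritic and T cells, neutrophils, fibroblasts) was at most 13.2 CPM in any library. Hbb-bs, Mcpt4 and Tpsb2 had 0 counts in all 4 libraries.

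The promoters of 6 of the genes are shown to set the 4 genes with the highest LPS effect beside Cyld and Otulin, which did not pass the test. Each window runs from 250 bases before to 50 bases after an annotated start of transcription (RefSeq, GRCm38.p6), written 5′ to 3′ on the strand of the gene. Capitals mark matches, on either strand, to the 10-base NF-κB consensus known as the kappaB decamer.
Tnfaip3, chr10:19015361-19015660, minus strand: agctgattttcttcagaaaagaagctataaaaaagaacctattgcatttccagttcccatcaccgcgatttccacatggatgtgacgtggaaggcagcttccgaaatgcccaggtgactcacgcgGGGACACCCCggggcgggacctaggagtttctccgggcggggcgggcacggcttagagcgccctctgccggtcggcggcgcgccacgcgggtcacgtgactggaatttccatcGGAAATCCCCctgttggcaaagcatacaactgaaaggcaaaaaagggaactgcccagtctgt
Tnip3, chr6:65590148-65590447, plus strand: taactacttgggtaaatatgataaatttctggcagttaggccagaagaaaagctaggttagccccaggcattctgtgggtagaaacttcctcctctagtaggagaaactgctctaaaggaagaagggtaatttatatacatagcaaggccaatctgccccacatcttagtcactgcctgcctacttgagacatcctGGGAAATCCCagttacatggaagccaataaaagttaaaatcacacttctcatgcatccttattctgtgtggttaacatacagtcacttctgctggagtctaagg
Birc3, chr9:7873121-7873420, minus strand: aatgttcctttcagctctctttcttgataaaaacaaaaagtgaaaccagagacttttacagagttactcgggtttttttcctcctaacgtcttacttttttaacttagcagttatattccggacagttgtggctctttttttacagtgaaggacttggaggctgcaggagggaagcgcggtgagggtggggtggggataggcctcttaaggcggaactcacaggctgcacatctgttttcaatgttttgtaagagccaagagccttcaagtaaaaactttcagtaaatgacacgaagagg
Tnip1, chr11:54962891-54963190, minus strand: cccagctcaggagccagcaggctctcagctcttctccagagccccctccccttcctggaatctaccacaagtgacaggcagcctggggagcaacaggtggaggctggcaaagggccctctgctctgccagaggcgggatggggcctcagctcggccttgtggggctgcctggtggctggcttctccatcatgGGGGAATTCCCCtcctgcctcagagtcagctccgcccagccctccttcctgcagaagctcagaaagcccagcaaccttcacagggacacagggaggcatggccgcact
Cyld, chr8:88696778-88697077, plus strand: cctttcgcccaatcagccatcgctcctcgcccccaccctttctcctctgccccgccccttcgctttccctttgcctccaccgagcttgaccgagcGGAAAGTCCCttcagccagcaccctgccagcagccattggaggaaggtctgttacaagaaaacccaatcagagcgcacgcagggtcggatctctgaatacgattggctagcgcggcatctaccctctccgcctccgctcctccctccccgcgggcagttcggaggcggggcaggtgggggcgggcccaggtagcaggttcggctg
Otulin, chr15:27630644-27630943, minus strand: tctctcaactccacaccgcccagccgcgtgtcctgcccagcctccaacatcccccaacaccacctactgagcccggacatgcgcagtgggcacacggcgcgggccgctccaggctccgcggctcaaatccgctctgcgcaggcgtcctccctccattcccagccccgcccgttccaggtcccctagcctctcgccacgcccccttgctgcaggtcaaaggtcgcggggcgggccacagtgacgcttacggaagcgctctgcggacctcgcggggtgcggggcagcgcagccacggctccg

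RefSeq held 13 windows for the 10 genes. The first Tnfaip3 window had 2 kappaB matches, which begin 125 and 12 bases upstream of the start, and its second window, at an alternative start, had 0. Tnip3 had 1 match, GGGAAATCCC, beginning 54 bases upstream. In Tnip1, 3 overlapping matches form a single stretch that begins 58 bases upstream and reads GGGGAATTCCCC. Cyld had 1 match 155 bases upstream, and the second of 2 Tax1bp1 windows had 1 match that begins 34 bases after the start. No kappaB match lay in the windows of Tnip2, Birc2, Birc3, N4bp1 or Otulin. Of all 32851 windows in the table, 8.46% held at least 1 kappaB match and 1.22% at least 2. AP-1 letters (TGANTCA, both strands) were found in 1 window of these genes, that of Tnfaip3, 136 bases upstream, and in 7.81% of all windows. The TATA box letters TATAAA, searched on both strands, were found in Tnfaip3, 225 bases upstream, and in 13.6% of all windows. Tnip3 held them only on the opposite strand, as TTTATA in the printed sequence, 120 bases upstream. Interferon response letters, GAAA repeated after any 2 bases, were found in none of the 13 windows and in 3.44% of all windows. Matches are letters only, and the Tnip3 window lies inside the gene body as deposited, whose coordinates begin further upstream.

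**Figure D1:**
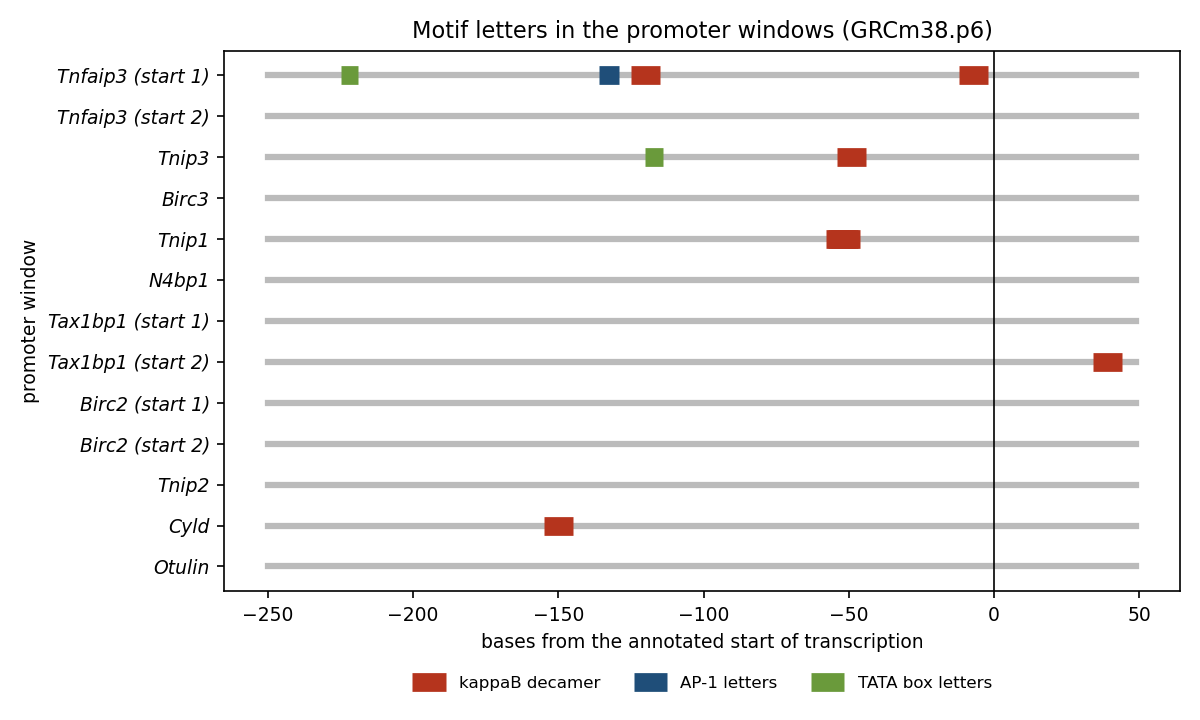
Positions of motif letters in the 13 promoter windows of the 10 genes, in bases from the annotated start (vertical line at 0), with genes ordered by LPS effect and grey bars marking the 300-base windows. Matches to the kappaB decamer are seen in Tnfaip3, Tnip3, Tnip1, Tax1bp1 and Cyld, and none in the other windows.

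With LPS, 8 of the 10 genes rose, and Cyld and Otulin had no called change. Tnfaip3 rose most, by 5.71 ± 0.40 log2 units (52.3-fold), where ± is the standard error implied by the F test of an additive model of title and treatment. Next came Tnip3 at 4.09 ± 0.29, Birc3 at 2.74 ± 0.24, Tnip1 at 2.63 ± 0.31 and N4bp1 at 2.45 ± 0.25. Tax1bp1 (1.58 ± 0.24), Birc2 (2.83-fold, SE 0.22 log2 units) and Tnip2 (1.49 ± 0.22) rose by less. Adjusted p (edgeR's quasi-likelihood test, Benjamini-Hochberg over all genes) ran from 0.00518 for Tnfaip3 and Tnip3 to 0.0189 for Tax1bp1. Over all genes tested, 9.35% rose and 5.14% fell by the same rule, and 0 of the 10 members fell. The median LPS effect was 2.02 for the 10 members and −0.05 for all genes tested. The model has 1 residual degree of freedom, and its spread is the departure of the 4 libraries from additivity, not the spread between replicate cultures. The quasi-likelihood fit draws each gene's spread towards that of all genes, so standard errors and p-values rest largely on other genes. In bulk RNA, fewer cells of a type and less RNA per cell cannot be told apart.

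A rule that uses no title gave the same 8 genes. It too cannot separate LPS from genotype if the genotype tags are right. Both LPS libraries lay above both untreated libraries for 8 of 10 members, against 33.0% of all genes tested, and both lay below for 1 member, Otulin, against 39.3%. The lowest fold among the 4 ways to set an LPS library against an untreated library was 38.7 for Tnfaip3, 15.5 for Tnip3, 6.07 for Birc3, 4.67 for N4bp1 and 4.61 for Tnip1. It was 2.63 for Tax1bp1, 2.38 for Birc2 and 2.33 for Tnip2, so each of these 8 genes was over 2-fold higher whichever libraries were paired. With library totals in place of TMM, 5 of them were over 2-fold higher in all 4 pairs, and the lowest fold was 1.76 for Tax1bp1, 1.70 for Birc2 and 1.69 for Tnip2.

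**Figure D2:**
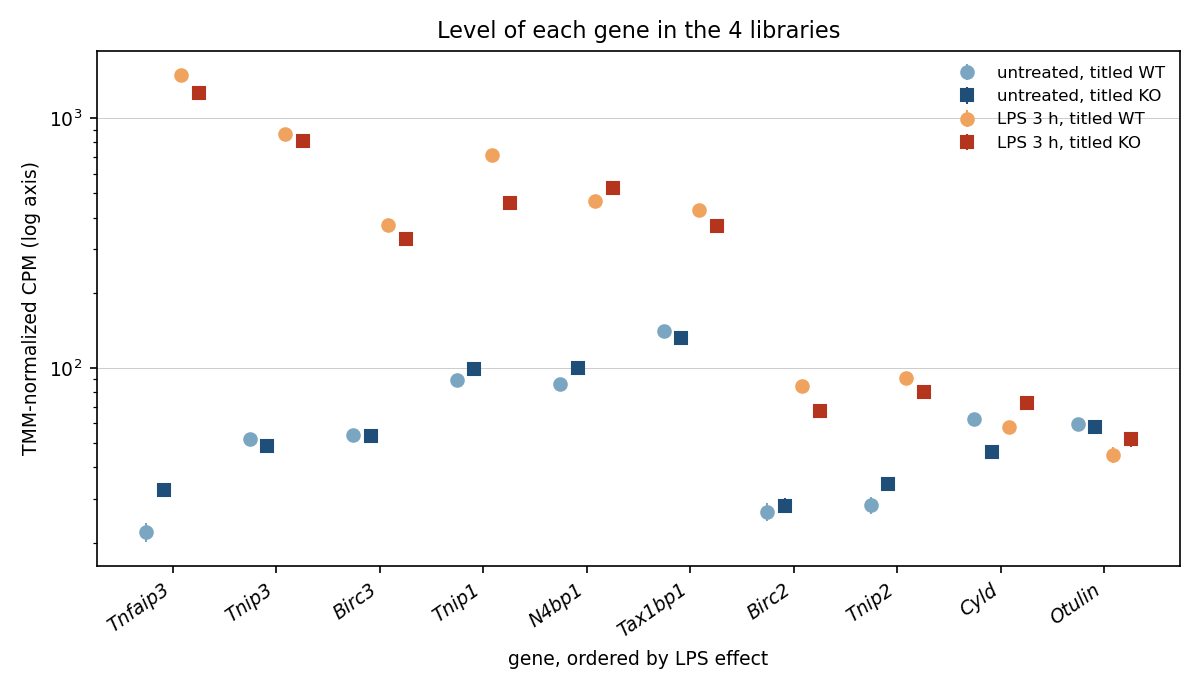
TMM-normalized CPM (log axis) of the 10 genes in the 4 libraries, circles for the title WT and squares for KO, blue for untreated and orange or red for LPS; bars are 95% counting intervals, mostly hidden by the symbols. LPS symbols lie above untreated ones for 8 genes, from Tnfaip3 (22.0 and 32.5 CPM untreated, 1482 and 1258 CPM after LPS) to Tnip2, and are mixed for Cyld.

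Tnfaip3 encodes A20, a deubiquitinase with ubiquitin-binding zinc fingers that ends NF-κB signalling (ENSMUSG00000019850, chromosome 10, 19000910 to 19015657, minus strand). Its level was 22.0, 32.5, 1482 and 1258 CPM. The LPS libraries were far above the untreated ones and the groups did not overlap. In the WT-titled pair the fold was 67.4 (95% counting interval 61.6 to 73.9) and in the KO-titled pair 38.7 (36.2 to 41.4). Only 0.722% of tested genes had a higher LPS effect. The lower fold in the KO-titled pair went with a higher untreated level, 1.48-fold (1.32 to 1.66) above that of WT, and a lower level after LPS, 1.18-fold (1.16 to 1.20) below that of WT_LPS3.

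The ABIN genes encode adaptors that bind A20 and ubiquitin chains. Tnip1, which encodes ABIN-1 (ENSMUSG00000020400, chromosome 11, 54910785 to 54962917, minus strand), had 89.8, 99.2, 709.6 and 457 CPM. Its LPS libraries were above the untreated ones, but WT_LPS3 stood well above KO_LPS3. The fold was 7.90 (7.53 to 8.29) in the WT-titled pair and 4.61 (4.41 to 4.82) in the KO-titled pair. Tnip3, which encodes ABIN-3 (ENSMUSG00000044162, chromosome 6, 65525313 to 65634040, plus strand), had 52.1, 48.8, 865 and 807 CPM. Titles barely differed here, with folds of 16.6 (15.6 to 17.7) and 16.5 (15.6 to 17.5). Tnip2, which encodes ABIN-2, also a partner of the kinase TPL2 (ENSMUSG00000059866, chromosome 5, 34496087 to 34513991, minus strand), had 28.3, 34.5, 91.2 and 80.3 CPM. Its rise was the smallest of the family, 3.22-fold (2.93 to 3.54) and 2.33-fold (2.14 to 2.53). Tax1bp1, a ubiquitin-binding adaptor of A20 and an autophagy receptor (ENSMUSG00000004535, chromosome 6, 52713729 to 52766780, plus strand), had 141, 132, 428 and 371 CPM. The LPS libraries were again the higher ones, by 3.03-fold (2.91 to 3.16) and 2.81-fold (2.70 to 2.93).

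Birc2 and Birc3 encode cIAP1 and cIAP2, RING ubiquitin ligases of TNF receptor complexes, and lie next to each other on chromosome 9, 11.6 kb apart and both on the minus strand. Birc3 (ENSMUSG00000032000, 7848699 to 7873186) had 54.1, 53.3, 373 and 328 CPM. Birc2 (ENSMUSG00000057367, 7818227 to 7837064) had 26.5, 28.2, 84.7 and 67.1 CPM. Both genes were higher in each LPS library than in either untreated one, Birc3 by 6.90-fold (6.49 to 7.35) and 6.16-fold (5.81 to 6.53) and Birc2 by 3.20-fold (2.90 to 3.53) and 2.38-fold (2.17 to 2.61). The ratio of their counts per base within a library needs no scaling between libraries. Birc3 was 1.87 times (1.69 to 2.07) and 1.73 times (1.59 to 1.89) as abundant as Birc2 untreated. After LPS the ratio was 4.03 (3.81 to 4.27) and 4.48 (4.19 to 4.78), so it was higher in both LPS libraries than in both untreated ones.

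N4bp1 encodes an RNA-binding protein that restrains NF-κB signalling and is cut by caspase-8 and MALT1 (ENSMUSG00000031652, chromosome 8, 86808160 to 86885258, minus strand). Its level was 86.0, 100.05, 468 and 524 CPM. The LPS libraries were the higher ones, with folds of 5.43 (5.17 to 5.72) and 5.24 (5.02 to 5.47). Unlike the other risers, N4bp1 was higher in the KO-titled than in the WT-titled library after LPS, by 1.12-fold (1.09 to 1.16).

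Cyld and Otulin, both deubiquitinases that cut linear ubiquitin chains, were the members without a called change. Cyld (ENSMUSG00000036712, chromosome 8, 88697028 to 88751945, plus strand) had 62.7, 46.1, 57.9 and 72.1 CPM. The groups overlapped, since the untreated WT library was above WT_LPS3. The model gave 0.30 ± 0.27 log2 units (edgeR adjusted p = 0.469), a value that was −0.27 when libraries were scaled by their totals. Otulin (ENSMUSG00000046034, chromosome 15, 27542635 to 27630693, minus strand) had 59.8, 58.3, 45.0 and 51.8 CPM. Both LPS libraries were below both untreated ones, but the model gave −0.26 ± 0.20 log2 units (edgeR adjusted p = 0.423). Otulin lies across Ank on the opposite strand, and no source used here gives the strand setting of the counts, but the exons of the genes share 0 bases in GENCODE M21. Scaling by library totals shifted the median LPS effect of all genes by −0.57 and left 64.5% of calls rising at TMM against 22.6%, and the same 8 members rose.

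**Figure D3:**
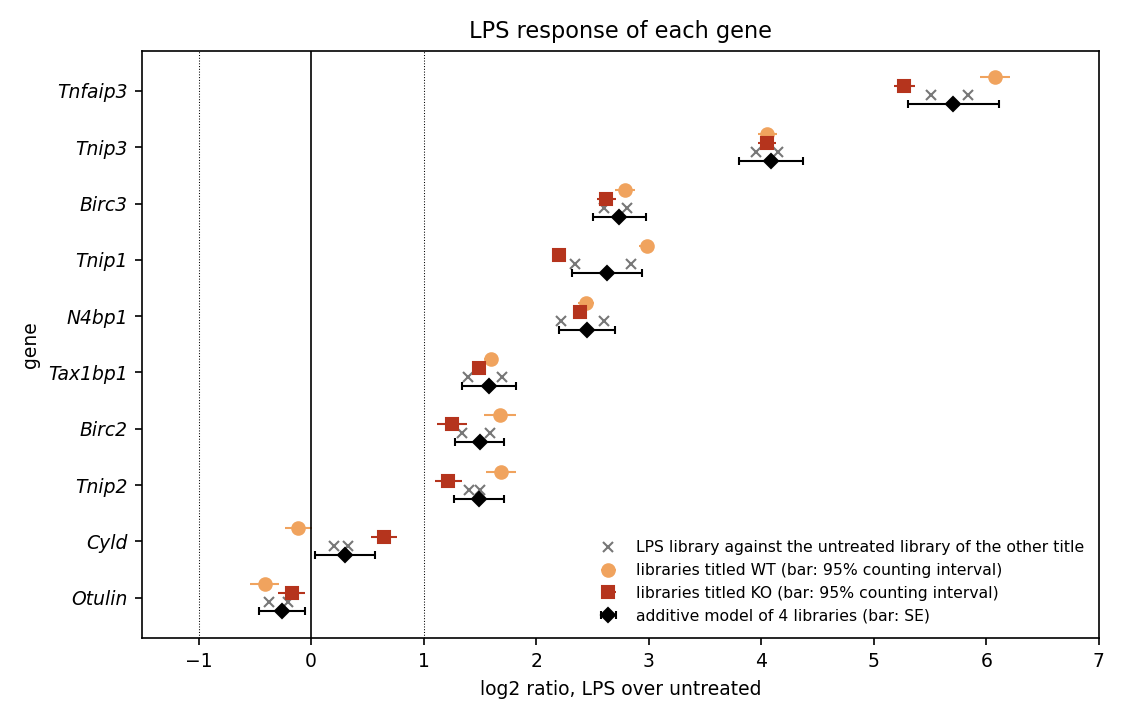
Log2 ratio of LPS over untreated level for each gene, in the WT-titled pair (circles), the KO-titled pair (squares), the pairs that join libraries of different titles (crosses) and the additive model (diamonds, bars ± SE); other bars are 95% counting intervals, and dotted lines mark 2-fold. For 8 genes every symbol lies right of the 2-fold line, and for Cyld and Otulin every symbol lies between the dotted lines.

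By the 2-fold rule between 2 libraries, which asks for a counting interval that excludes no change and has no replicate check, 8 of 10 members were higher after LPS in the WT-titled pair and the same number in the KO-titled pair. Over all genes tested by that rule, 15.4% were higher and 15.0% lower in the WT-titled pair, and 14.6% higher and 17.8% lower in the KO-titled pair, with 0 members lower in either. In the authors' deposited table, the log2 fold of the 8 rising genes ran from 1.63 for Tax1bp1 to 6.10 for Tnfaip3 in the WT-titled pair and from 1.22 for Tnip2 to 5.27 for Tnfaip3 in the KO-titled pair. The largest adjusted p of these 8 genes in the authors' deposited table was 0.00124 for Tax1bp1 in the first pair and 0.0237 for Tnip2 in the second. For Cyld the authors' deposited table gave 0.980 and 0.327, and for Otulin 0.671 and 0.857. Each of these p-values sets 1 library against 1 library, so none has a replicate check either.

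Levels of different genes were compared per length, as the authors' FPKM. The length is the union of all annotated exons, 1693 bases for Otulin and 12576 for Cyld. It need not be the length of the transcript expressed, so the order and shares below also depend on annotation. By this measure Otulin was the most abundant of the 10 untreated, at 34.6 and 33.2 FPKM, followed by Tnip1 at 24.9 and 27.0. Tnfaip3 was among the least abundant untreated, at 2.98 and 4.34 FPKM, close to Tnip3 (4.67 and 4.31) and Cyld (4.88 and 3.54), and the order of these last 3 differed between the untreated libraries. After LPS, Tnfaip3 stood first with 206 and 179 FPKM. Tnip1 followed with 201 and 133, then Tnip3 with 79.6 and 75.9 and Birc3 with 74.9 and 67.3. In WT_LPS3 Tnfaip3 and Tnip1 differed by less than either gene differed between the LPS libraries. Cyld came last at 4.62 and 5.89 FPKM. The summed level of the 10 genes was 119, 122, 727 and 620.0 FPKM. Tnfaip3 made up 2.50, 3.57, 28.3 and 28.8% of that sum and Otulin 29.0, 27.3, 3.67 and 5.06%.

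Within a library, these ratios do not depend on how libraries are scaled to each other. Per base, Tnfaip3 had 0.120 and 0.161 times the counts of its partner Tnip1 untreated and 1.02 and 1.35 times after LPS. Against Cyld the ratio went from 0.611 and 1.23 to 44.6 and 30.3, and against Otulin from 0.0862 and 0.131 to 7.72 and 5.69. Among the ABIN genes, the ratio of Tnip3 to Tnip1 went from 0.188 and 0.159 to 0.395 and 0.572, while that of Tnip2 to Tnip1 went from 0.415 and 0.458 to 0.169 and 0.232. In each of these 5 pairs both LPS libraries lay on the same side of both untreated ones.

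**Figure D4:**
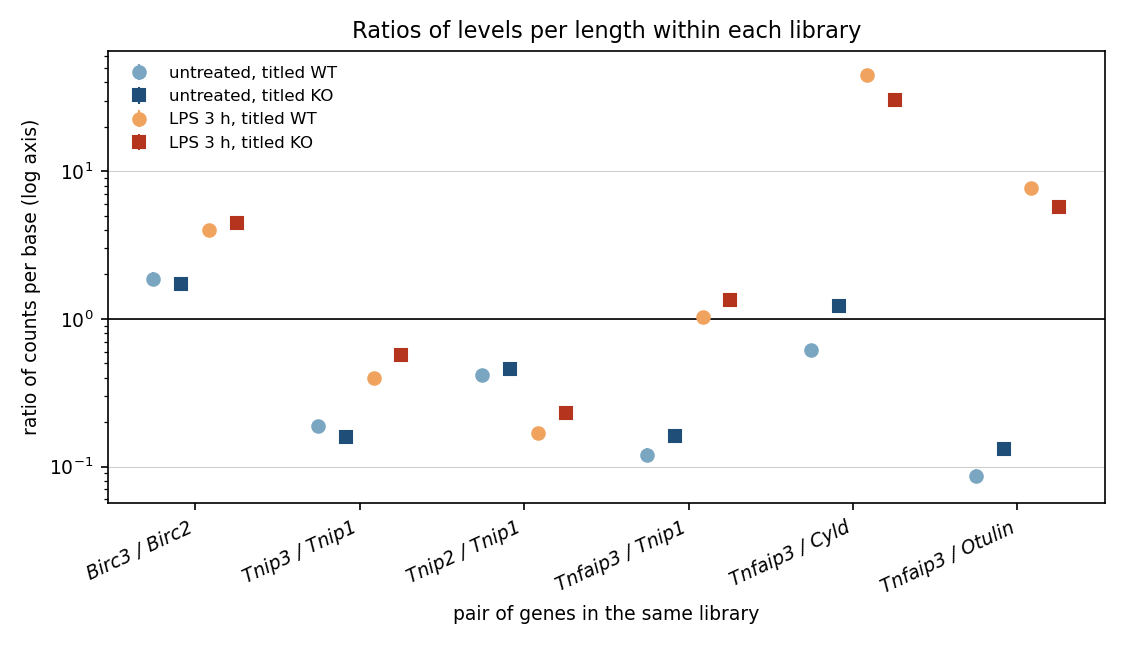
Ratio of counts per base of 6 pairs of genes within each library (log axis, line at 1; symbols as in the plot of levels; 95% counting intervals are hidden by the symbols). After LPS, Birc3 over Birc2 is 4.03 and 4.48, from 1.87 and 1.73, and Tnfaip3 over Tnip1 is near 1, from 0.120 and 0.161.

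No member was called different between titles. In the additive model 0 of 10 members, and 0% of all genes, had a title effect at an adjusted p under 0.05 by edgeR, DESeq2 or limma-voom, with 39, 33 and 62 genes at an unadjusted p under 0.05 and 0 members among them. By the 2-fold rule 0 of 10 members were called between titles untreated, where 5.18% of genes were, and 0 of 10 after LPS, where 8.23% were. The largest difference was that of Tnip1 after LPS, 1.55-fold (1.51 to 1.60) lower in KO_LPS3 than in WT_LPS3. For 6 of 10 members the KO-titled library was higher in one treatment and lower in the other, and this was so for 67.7% of all genes tested. Among these members, the untreated KO against WT ratio was 1.06 for Birc2 and 0.976 for Otulin. Their counting intervals, 0.954 to 1.19 and 0.907 to 1.05, included no change.

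The LPS response, as a log2 ratio, was smaller in the KO-titled pair by 0.80 for Tnfaip3 (95% counting interval of the difference, KO minus WT, −0.96 to −0.64) and by 0.78 for Tnip1 (−0.87 to −0.68). For Tnip2 the difference was −0.47 (−0.65 to −0.29) and for Birc2 −0.43 (−0.62 to −0.23). Cyld went the other way, with a difference of 0.76 (0.60 to 0.92): it was 1.08-fold lower in WT_LPS3 than in WT and 1.56-fold higher in KO_LPS3 than in KO. The counting interval excluded 0 for 8 of 10 members and for 55.6% of all genes, and the median size over all genes was 0.47, and such differences were thus common among all genes. They have no replicate check. Each LPS library was also set against the untreated library of the other title. Cyld was then 1.15-fold and 1.25-fold higher and Tnfaip3 57.2-fold and 45.5-fold higher. These values lie between those of the titled pairs. They must do so wherever KO against WT goes opposite ways untreated and after LPS, as for both genes.

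Genes beside the members were read from the deposited coordinates. Of 18 nearest protein-coding neighbours that are not members, 9 were expressed enough to be tested, 2 rose and 1 fell. Beside Cyld, whose LPS effect did not pass the test, lies Nod2, named after its values were seen, a sensor of bacterial peptidoglycan 8.55 kb away, with 7.85, 13.1, 173 and 114 CPM. Nod2 rose by 3.82 ± 0.40 log2 units (edgeR adjusted p = 0.00883). Beside Otulin, 24.4 kb away, its paralog Otulinl had 101, 72.0, 27.4 and 26.1 CPM and fell by 1.64 ± 0.23 log2 units (edgeR adjusted p = 0.0159). Tmem123, 23.9 kb from Birc2, rose by 1.08 ± 0.23 (edgeR adjusted p = 0.0451). Neighbours of the strongest riser were barely detected, since Perp and Olig3, 144 and 341 kb from Tnfaip3, had at most 9 counts in any library. Gpx3, 0.407 kb from Tnip1, did not pass the test (0.32 ± 0.62 log2 units, edgeR adjusted p = 0.744). The other tested neighbours did not pass either, with LPS effects of 0.91 for Anxa6, −0.29 for Fam193a, 0.48 for Sh3bp2, 0.81 for Hibadh and 0.39 for Jazf1.

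Other genes of the pathway were followed in 7 lists of 68 gene symbols, of which 67 were in the deposited table and 66 were tested. In all, 19 rose, 2 fell and 45 passed in neither direction, with a median LPS effect of 0.53. Among LUBAC genes, Rnf31, the catalytic subunit, rose (1.69 ± 0.24), while Rbck1 (0.31 ± 0.20) and Sharpin (−0.17 ± 0.20) did not pass. Of 12 TRAF and other ubiquitin ligase genes 3 rose and 0 fell, with a list median of 0.75. These were Traf1, a TRAF that recruits cIAPs (4.38 ± 0.73), Peli1, a ligase of TLR signalling (4.09 ± 0.29), and Traf2 (1.46 ± 0.20). Ube2n, which makes the conjugating enzyme UBC13, was at 0.94 ± 0.22 and did not pass. Traf1 had 6.62, 17.4, 342 and 144 CPM, so its LPS libraries differed more than those of any member. Of 13 other deubiquitinases and partners 3 rose and 0 fell, with a median of 0.14. They were Usp18, which removes ISG15 (3.31 ± 0.27), Usp25 (1.60 ± 0.25) and Usp15 (1.15 ± 0.25), and Usp21 was at −0.72 ± 0.26 without passing.

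Of 17 kinases and adaptors 4 rose and 1 fell, with a median of 0.60. Ripk2, the kinase of NOD receptors (3.20 ± 0.23), the adaptor genes Tank (2.36 ± 0.23) and Azi2 (2.03 ± 0.22) and Map3k8, which encodes the ABIN-2 partner TPL2 (2.06 ± 0.24), rose. Tab1, an activator of the kinase TAK1, fell by 1.94 ± 0.29. The IKK genes Chuk, Ikbkb and Ikbkg did not pass (0.32, 0.34 and −0.15). Nor did Ikbke, which encodes the IKK-related kinase IKKε, although its effect was larger than that of some rising members (1.84 ± 0.47, edgeR adjusted p = 0.0650). TNF receptor and cell death genes had 4 risers and 0 fallers of 10, with a median of 0.69. Tnf rose by 5.30 ± 0.31, Cflar, which encodes the caspase-8 inhibitor c-FLIP, by 3.80 ± 0.31, Mlkl, the effector of necroptosis, by 2.40 ± 0.21 and Tnfrsf1a by 1.09 ± 0.24. Of the 4 genes for proteases that cut members and their scaffold, Malt1, a paracaspase that cuts A20, CYLD and N4BP1, rose by 3.66 ± 0.30 and its partner Bcl10 by 1.13 ± 0.21. Card9 (−0.86 ± 0.28) did not pass, and the list median was 0.46. Of 7 tested genes listed as paralogs of members 2 rose and 1 fell, with a median of 0.04. Zc3h12a, which encodes the RNase regnase-1, rose by 2.08 ± 0.25 and Optn, which encodes optineurin, by 1.73 ± 0.20, and Otulinl fell as given above. Calcoco1 was at −0.74 ± 0.20 without passing.

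**Figure D5:**
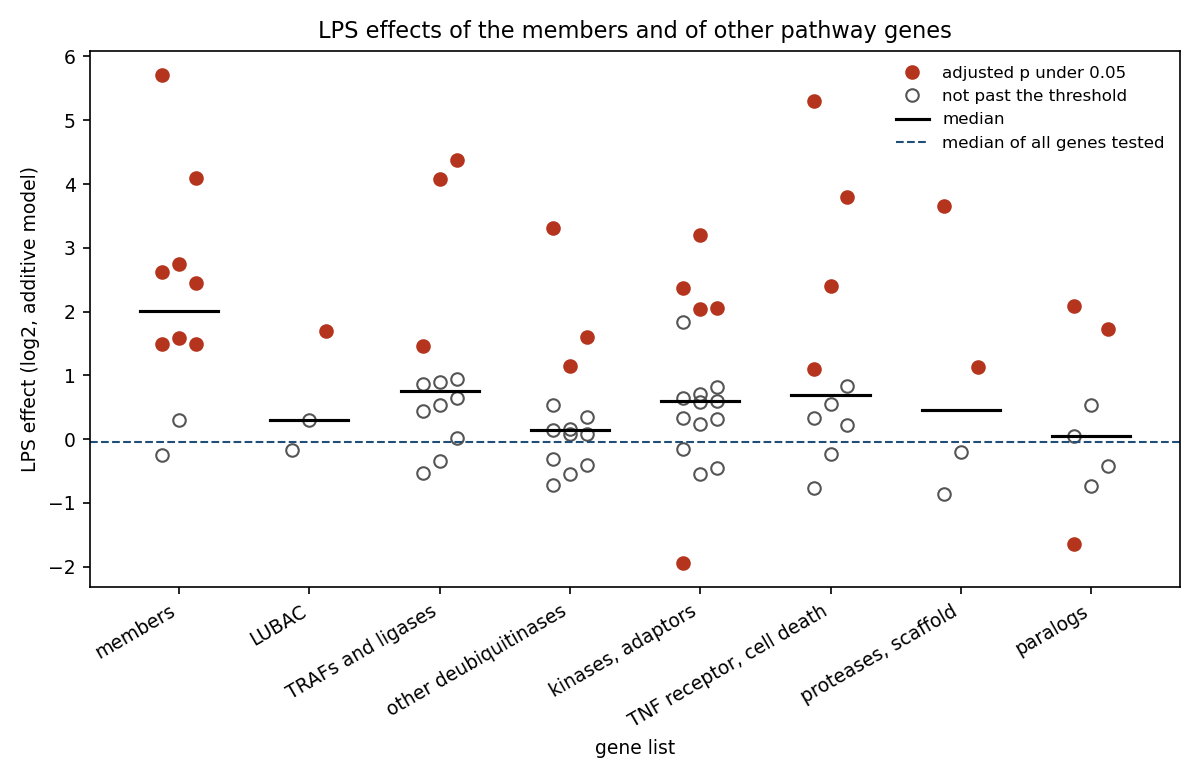
LPS effect (log2, additive model of 4 libraries) of the 10 members and of the tested genes of 7 pathway lists; filled points passed an adjusted p of 0.05 in edgeR, bars are list medians and the dashed line is the median of all genes tested (−0.05). The members' median is 2.02, and the list medians lie between 0.04 and 0.75.

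Likeness of pattern was measured as the distance between log2 CPM profiles over the 4 libraries, each centred on its mean, among 9376 protein-coding genes. With 4 points it is a description only. Nearest to Tnfaip3 were Kcna3, a potassium channel gene (distance 0.08), the SOCS family gene Cish (0.37) and Ccrl2, a chemokine-binding receptor gene (0.37). Birc3 was nearest to Herc6 (0.05), Tma16 (0.09) and Stat5a (0.13), and its neighbour Birc2 to Zfp131 (0.03), Rictor (0.05) and Tle3 (0.11). Tnip1 was close to Etv3 and Pfkfb3 (0.11 and 0.14), Tnip2 to Pik3r5, Lrrc8c and Rnf135 (0.05, 0.05 and 0.10) and Tnip3 to Zfp800, Prag1 and Tiparp (0.16, 0.19 and 0.20). For Tax1bp1 the nearest were Ets1, Cd244a and Inpp5b (0.04, 0.05 and 0.05), and for N4bp1 Mlkl, Zbtb5 and Gm4951 (0.07, 0.08 and 0.09).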

How the data were processed

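RNA-seq of 4 libraries, 1 per group, was analysed. The submitters' processing notes name HISAT2 2.0.5 and mm10. No source used here gives the counting program, strand setting or statistical test. Per the file headers, the authors deposited gene counts and FPKM for each library. For 4 comparisons the deposited table also held log2 folds with raw and adjusted p-values. How the authors scaled FPKM is not stated, and 8 other per-sample columns were left out. Deposited gene lengths equalled the GENCODE M21 exon union for all 10 members.

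Groups followed sample titles. The main test was edgeR 4.0.16 (TMM, filterByExpr, quasi-likelihood F test across all genes, adjusted p under 0.05) of title and treatment, checked on simulated counts. Its scaling factors were computed after the filter; printed CPM used factors over all genes. Pairs of libraries were compared by a size rule: mean of at least 1 CPM, 2-fold with a prior count of 2, and an exact 95% binomial interval excluding no change, which, like the Poisson interval of differences of responses (delta method), covers counting error only. DESeq2 1.42.0 and limma 3.58.1 were alternatives, with scaling, filter, threshold, title term and each library left out. Named genes were the 10 members, label checks, tested neighbours, the 3 most alike genes (mean of at least 5 CPM) per rising member and, per pathway list, up to 4 of largest effect with risers and fallers where 5 or fewer; Chuk, Ikbkb, Ikbkg and Ikbke were added after their values were seen. Some genes that this rule names are not reported here. Members and lists were chosen with earlier results of these data known. Motifs were searched in RefSeq promoters (GRCm38.p6). No protein sequences were used here. Tables and figures were made in Python 3.11.15 (SciPy 1.17.1, NumPy 2.4.6, matplotlib 3.10.9, pandas 2.3.3), and models in R 4.3.3.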

Additional observations from a re-analysis of the deposited data

Results flagged for a closer look

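Members whose 2 effects under the same contrast went opposite ways are given here. With LPS, Cyld was lower in the WT-titled pair, where the counting interval included no change, and higher in the KO-titled pair, a difference of log2 responses of 0.76. Between titles, KO against WT went opposite ways untreated and after LPS for Tnfaip3 (−0.80), Tnip1 (−0.78), Tnip2 (−0.47), Birc2 (−0.43), Cyld (0.76) and Otulin (0.24), each value being the KO minus WT difference of log2 LPS responses. With 1 library per group these differences were not tested. Untreated, the counting interval of KO against WT included no change for Birc2 and Otulin. Opposite directions of this kind were seen for 67.7% of all genes tested. Lyz1 was high in KO and WT_LPS3. Tnfaip3, Tnip1, Tnip2 and Birc2 differed between titles in the direction of Lyz1, and Cyld and Otulin in the opposite direction. The part of Lyz1 in these differences was not tested.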

How the results depend on the processing

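The number of members rising with LPS was 8 with DESeq2, with limma-voom, with DESeq2 size factors or library totals in edgeR, without the expression filter, with treatment as the only term, which does not use the titles, and without each library in turn (8 to 8, by treatment alone). It was 4 at an adjusted p under 0.01 (Tnfaip3, Tnip3, Birc3 and N4bp1). No member fell under any of these. Over the alternatives the effect of Tnfaip3 ran from 5.13 to 5.98 log2 units and that of Tnip2, the smallest riser, from 0.91 to 1.61. The effect of Cyld turned to −0.27 with library totals, and that of Otulin ran from −0.83 to −0.14. The value of −0.83 came with library totals (edgeR adjusted p = 0.0503). By the 2-fold rule with library totals, 7 members, all risers but Tax1bp1, were higher in the WT-titled pair, and 6, all risers but Tnip2 and Birc2, in the KO-titled pair. The Otulin ratio in the WT-titled pair was then 0.492, past 2-fold, and Otulin was thus called lower there. Also with library totals, the difference of LPS responses between titles turned from −0.11 to 0.034 for Tax1bp1, from −0.01 to 0.14 for Tnip3 and from −0.05 to 0.091 for N4bp1, and its counting interval excluded 0 for 7 members, against 8. At 1.5-fold in place of 2-fold, 9 members, now with Cyld (1.56-fold), were higher after LPS in the KO-titled pair, against 8. By that setting 1 member, Tnip1, was called between titles after LPS, against 0. Over all genes, 2027 passed, against 4059 with library totals, 3797 without the filter, 4485 with treatment as the only term and 453 at an adjusted p under 0.01. The comparison of each LPS library with the untreated library of the other title, its form with library totals, the other scalings of the overlap rule and the title effect by DESeq2 and limma-voom were added after seeing the data. Pairing by replicate was not possible because each group has 1 library and the titles give no replicate number. The title term of the additive model sets LPS against untreated libraries within a title, and treatment as the only term does not.

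With 1 library per group, no difference between titles has a replicate check, and the titles themselves are in doubt. Counting error is small for all 10 genes, whose lowest count was 485. Gene-level counts do not separate transcripts that start at different promoters.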

Other observations

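The promoter letters were also counted in the windows of all genes with a RefSeq entry, as shares without a test. The kappaB decamer was found for 16.0% of 949 genes that rose with LPS and 12.3% of 9943 genes tested. Interferon response letters were found for 10.4% and 4.05%, AP-1 letters for 9.91% and 6.49% and TATA box letters for 13.6% and 8.74%, in the same order. For 4 of the 8 rising members, Tnfaip3, Tnip1, Tnip3 and Tax1bp1, at least 1 window held a kappaB match, as did that of Cyld, which did not pass the test.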
